A study of Mus musculus with 6 samples.

Results

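Mylip, some of the receptors for lipoproteins and apolipoprotein E, and genes of the liver X receptor (LXR) pathway were followed in CT26 tumours under glutamine depletion. The 8 genes were Mylip, Vldlr, Lrp8, Lrp1, Nr1h2, Nr1h3, Abca1 and Abcg1, read by symbol from a table of 40303 gene models. Mylip was selected on its lower normalized counts in the tumours of treated mice, and the other 7 were added as its relatives in the pathway. Its values are therefore given as a description, with no test.

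CT26 is a colon carcinoma line of BALB/c mice, and the tumours grew under the skin of 6 wild-type BALB/c hosts. In the PEG-glutaminase group 3 mice received PEGylated glutaminase, an enzyme that breaks down glutamine in the circulation, by injection into the peritoneum at 50 IU per kg. In the vehicle group 3 mice received phosphate-buffered saline with 10% glycerol. Both groups received 2 treatments at an interval of 3 days, begun once tumours could be felt. The 6 mice gave 6 libraries of poly(A) RNA and are the replicates. The tumours were taken whole, so host cells are measured together with the CT26 cells.

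LXRs are nuclear receptors that sense oxysterols, the oxidised forms of cholesterol. With RXR partners they raise the cholesterol exporters Abca1 and Abcg1. They also raise Mylip, known as IDOL, a ubiquitin ligase that sends receptors such as Vldlr and the apolipoprotein E receptor Lrp8 to the lysosome. Cells with much sterol thus export cholesterol and take up less of it, a circuit well known in macrophages.

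Libraries held 16455052 to 18051480 reads. Vim, the mesenchymal filament gene, was abundant, at 114254 to 139819 normalized counts in vehicle and 87851 to 108398 in PEG-glutaminase tumours. Its groups did not overlap, as in 12.7% of all tested genes in that direction. Of the 6 epithelial markers listed with it Krt18 lay at 131 to 263 and Cdh1 at 31.1 to 125 over both groups. Epcam lay at 2.07 to 58.0, Krt8 at 6.87 to 27.8, Krt19 at 0.981 to 19.5 and Cldn4 at 0 to 24.1. The tumour in vehicle 1 stood apart in skin markers, with a summed level of 8041 normalized counts over 8 keratinocyte genes against 64.3 to 232 in the other 5 libraries. PEG-glutaminase 2 had the lowest summed level of 10 T and NK cell genes, 427 normalized counts, and the highest of 7 fibroblast genes, 37712. Most of the latter was Col1a1, at 14492, and Col3a1, at 17549, which with Lum were highest in that tumour. Dcn, at 2658, and Dpt, at 166, were instead lowest there of the 6 tumours, and Pdgfra and Pdgfrb were neither. Macrophage genes, 11 in all, summed to 45685 to 61533 in vehicle tumours and 53554 to 60470 in PEG-glutaminase tumours. Their means were higher after treatment in 7 of 11 and lower in 4, with 0 called by limma and 1 by DESeq2, which called 4.18% of all genes. Mrc1 differed by 1.40 ± 0.27 (log2, SE; limma adjusted p = 0.124) with no overlap of the groups, and the other 10 lay between -0.40, for Fcgr1, and 0.29, for Lyz2. Values below are normalized counts, reads divided by a size factor of each library.

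In the table the members carry the Ensembl identifiers ENSMUSG00000038175 (Mylip), ENSMUSG00000024924 (Vldlr), ENSMUSG00000028613 (Lrp8) and ENSMUSG00000040249 (Lrp1). The nuclear receptors and transporters are ENSMUSG00000060601 (Nr1h2), ENSMUSG00000002108 (Nr1h3), ENSMUSG00000015243 (Abca1) and ENSMUSG00000024030 (Abcg1). Each symbol had 1 gene model, and all 8 passed the minimum mean of 10 normalized counts over the 6 libraries.

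Mylip stood at 722, 756 and 687 normalized counts in vehicle 1, 2 and 3, and at 430, 450 and 446 in PEG-glutaminase 1, 2 and 3. Every PEG-glutaminase tumour lay below every vehicle tumour, as in 12.7% of all tested genes. Mylip was selected for this fall, so its separation, and the spread and stability given below, are no test of it. The mean was 722 ± 34.8 in vehicle and 442 ± 10.9 in PEG-glutaminase tumours (SD, n = 3 per group), so treated tumours held 61.3% of the vehicle level. The spread was small beside this difference, with a coefficient of variation of 4.82% and 2.47%, vehicle first. On the log2(value + 1) scale Mylip differed by -0.70 ± 0.09 (SE), and 4.56% of the 13557 tested genes had a lower difference. With 1 library left out in turn the difference ran from -0.74 to -0.67, and it was -0.72 without vehicle 1 and PEG-glutaminase 2 together. In whole tumours, fewer cells of a type and less RNA per cell cannot be told apart.

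Markers of several host cell types differed in mean between the groups. T and NK cell genes had lower means after treatment in 10 of 10 (0 called by limma, 1 by DESeq2), where 50.0% of all tested genes had a negative difference and DESeq2 called 2.31% lower. They had summed levels of 2957 to 3219 normalized counts in vehicle and 427 to 2282 in PEG-glutaminase tumours. Dendritic cell genes had lower means in 6 of 7 (0 called by limma, 3 by DESeq2), against the same shares of all genes, with sums of 5705 to 9033 and 1709 to 3276. Most of these sums was H2-Aa, at 5076 to 8354 in vehicle and 1316 to 2815 in PEG-glutaminase tumours. The gene that was not lower was Zbtb46, with means of 152 ± 22.1 and 160 ± 17.5. No marker of either list was at 0 in all libraries. Their part in the Mylip difference was not tested.

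**Figure D1:**
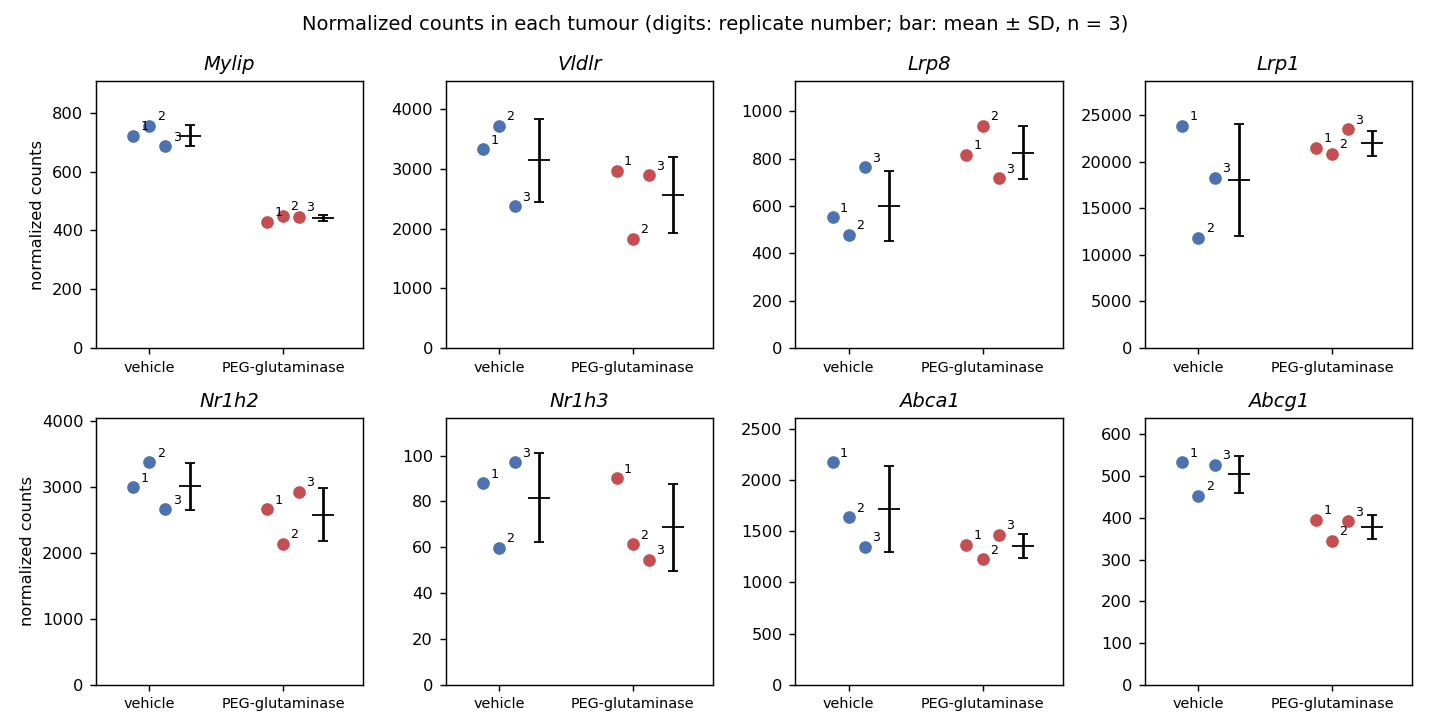
Normalized counts of Mylip, Vldlr, Lrp8, Lrp1, Nr1h2, Nr1h3, Abca1 and Abcg1 in each tumour (points, with the replicate number), with mean ± SD beside them (n = 3 per group); each vertical axis starts at 0. Mylip, chosen for its fall, and Abcg1 are the genes in which all 3 PEG-glutaminase points lie below all 3 vehicle points. Of all tested genes 12.7% separated in this way.

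The promoter of Mylip is shown with that of Abca1, the LXR target whose element lies close to the start site. RefSeq (GRCm38.p6, a C57BL/6J genome and not the BALB/cJ models of the table) gave windows of 250 bases before to 50 after the start for 7 of the 8 members. No window was found for Abcg1. Capitals mark TATAAA in both, CCAAT on the reverse strand (read as ATTGG) in Mylip, and in Abca1 a relaxed LXR repeat on the reverse strand. The Mylip window is chr13:45389492-45389791 on the plus strand and the Abca1 window chr4:53159846-53160145 on the minus strand.
Mylip: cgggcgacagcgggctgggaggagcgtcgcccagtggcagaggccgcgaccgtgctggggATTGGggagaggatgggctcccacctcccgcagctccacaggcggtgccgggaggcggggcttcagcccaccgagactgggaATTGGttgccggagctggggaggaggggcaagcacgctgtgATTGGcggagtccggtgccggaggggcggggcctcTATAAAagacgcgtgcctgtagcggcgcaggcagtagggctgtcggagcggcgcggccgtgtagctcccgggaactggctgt
Abca1: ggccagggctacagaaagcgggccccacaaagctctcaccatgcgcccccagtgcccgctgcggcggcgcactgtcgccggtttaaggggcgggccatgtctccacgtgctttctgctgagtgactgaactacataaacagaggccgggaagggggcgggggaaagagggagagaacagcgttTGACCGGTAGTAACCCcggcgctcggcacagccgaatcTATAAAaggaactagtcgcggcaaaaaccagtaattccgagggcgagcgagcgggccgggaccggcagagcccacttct

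Both windows hold TATAAA, from 32 to 27 bases before the start in Mylip and from 29 to 24 in Abca1, which 13.6% of all 32851 windows also hold. Mylip has CCAAT 3 times, at 190 to 186, 108 to 104 and 67 to 63 bases before the start, and 37.4% of windows hold at least 1. The LXR repeat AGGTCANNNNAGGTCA, searched on both strands, was in 0 of the 11 windows of these 7 genes and in 0.0152% of all windows. A relaxed form, NGGTNANNNNNGGTCA, was chosen after the windows were seen, to include the element known in Abca1. It matched Abca1 from 67 to 52 bases before the start, no other of the 11 windows, and 0.207% of all windows. The single unit AGGTCA, which 16.3% of windows hold, was found in 1 window of Lrp8. None of these letters overlapped another motif shown. A missing match says only that the letters are not in these 300 bases.

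Mylip acts on Vldlr and Lrp8 by binding a short segment of their cytoplasmic tails. The coding sequences of the 8 members (GENCODE M21) were translated and searched for the recognition pattern known for this ligase, 11 codons long. It was found in 2 of them, Vldlr and Lrp8, and not in Lrp1. The 33 coding bases of each site are shown because the pattern separates these receptors from Lrp1, with capitals for the 23 bases shared by both.
Vldlr: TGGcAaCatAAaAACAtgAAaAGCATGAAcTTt
Lrp8: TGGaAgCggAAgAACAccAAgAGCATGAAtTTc

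The stretch starts at coding base 2464 of 2619 in Vldlr and 2527 of 2865 in Lrp8. Every coding transcript of a gene in which the pattern was found carried the same 33 bases.

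Among these receptors, Lrp8 had a higher mean in PEG-glutaminase tumours and Vldlr a lower one, and neither passed the test. Adjusted p-values here are from limma with Benjamini-Hochberg adjustment over all 13557 tested genes. Mylip, on which the set was chosen, is left out of the counts. Of the other 7 members limma called 0, where it called 0.0369% of all tested genes, 0.0295% lower and 0.00738% higher. Likewise 0 of the 7 were called by edgeR (0.0369% of all genes) and 0 by DESeq2 (4.18% of all genes). At an unadjusted p under 0.05 limma had 2 of these 7, Lrp8 and Abcg1, where 18.4% of all tested genes reached it.

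Lrp8, a receptor for apolipoprotein E and reelin, stood at 552, 479 and 764 normalized counts in vehicle 1, 2 and 3 and at 816, 939 and 716 in PEG-glutaminase 1, 2 and 3. The groups overlapped, since vehicle 3 lay above PEG-glutaminase 3. The means were 598 ± 148 and 824 ± 112 (SD, n = 3 per group), 37.7% higher after treatment. The log2 difference was 0.48 ± 0.18 (SE; limma adjusted p = 0.220), with a 95% interval from 0.07 to 0.89. Leaving out 1 library gave 0.33 to 0.67.

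Vldlr, which binds triglyceride-rich lipoproteins, stood at 3329, 3726 and 2375 normalized counts in vehicle 1, 2 and 3 and at 2971, 1834 and 2893 in PEG-glutaminase 1, 2 and 3. Vehicle 3 lay among the treated tumours and PEG-glutaminase 2 was the lowest of the 6. The log2 difference was -0.30 ± 0.25 (SE; limma adjusted p = 0.554; 95% interval -0.92 to 0.32). It was -0.08 without PEG-glutaminase 2, -0.17 without vehicle 2, -0.49 without vehicle 3 and -0.02 without vehicle 1 and PEG-glutaminase 2 together.

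Lrp1, a large endocytic receptor of macrophages, fibroblasts and liver, stood at 23870, 11853 and 18295 normalized counts in vehicle 1, 2 and 3 and at 21509, 20869 and 23485 in PEG-glutaminase 1, 2 and 3. Vehicle 2 was far below the other 5 tumours and vehicle 1 was the highest. The log2 difference was 0.34 ± 0.24 (SE; limma adjusted p = 0.473; 95% interval -0.23 to 0.92). It was 0.07 without vehicle 2, 0.57 without vehicle 1 and 0.61 without vehicle 1 and PEG-glutaminase 2 together. The coefficient of variation was 33.4% in vehicle and 6.21% in PEG-glutaminase tumours.

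**Figure D2:**
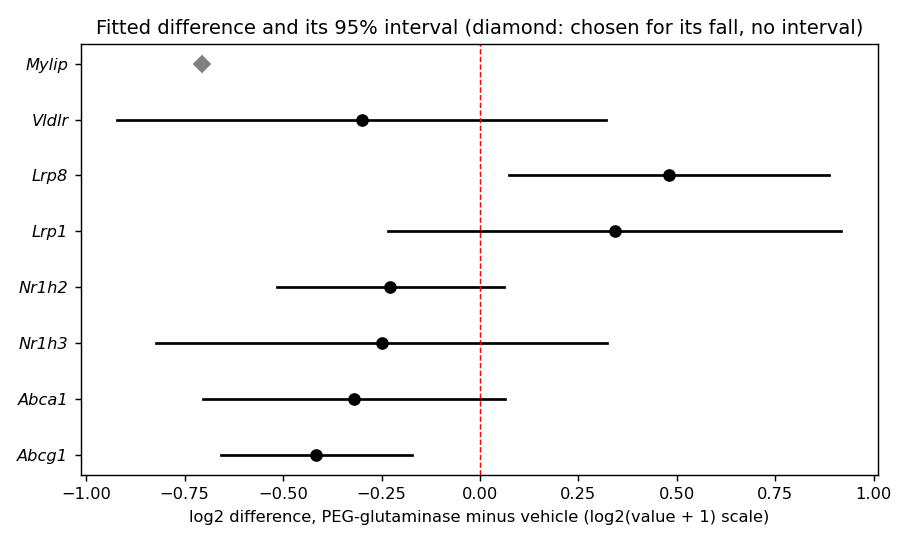
Fitted log2 differences (PEG-glutaminase minus vehicle, log2(value + 1) scale; points) and 95% intervals (lines) of the 8 members, 3 tumours per group. The intervals of Lrp8, from 0.07 to 0.89, and Abcg1, from -0.66 to -0.17, lie on one side of 0 before adjustment over all genes; the point of Mylip, chosen for its fall, carries no interval.

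The ratio of a receptor to Mylip within a tumour carries the Mylip difference with it and is given as a description. Per kilobase of transcript, the ratio of Lrp8 to Mylip was 0.354, 0.293 and 0.515 in vehicle 1, 2 and 3 and 0.878, 0.965 and 0.742 in PEG-glutaminase 1, 2 and 3. Its mean was 0.387 ± 0.115 in vehicle and 0.862 ± 0.112 in PEG-glutaminase tumours (SD, n = 3 per group). Every treated tumour had a higher ratio than every vehicle tumour, although the counts of Lrp8 itself overlapped. How many other genes would separate when divided by Mylip was not computed. The ratio of Vldlr to Mylip was 1.67 ± 0.30 and 2.24 ± 0.59, and the groups overlapped because PEG-glutaminase 2 lay at 1.57.

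**Figure D3:**
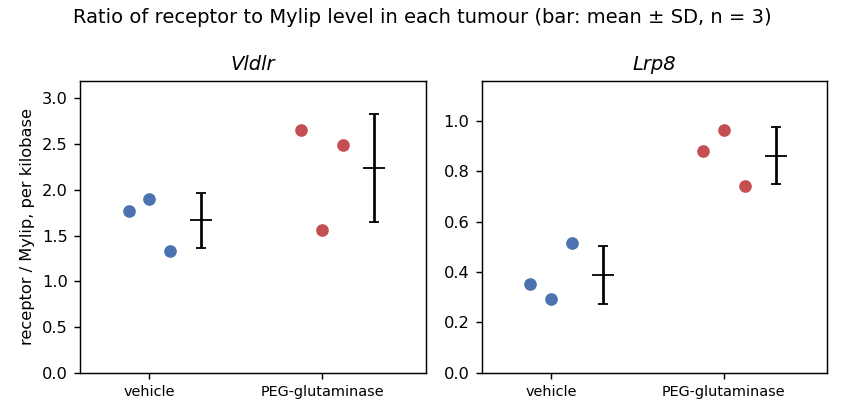
Ratio of Vldlr and Lrp8 to Mylip in each tumour, both per kilobase (points), with mean ± SD beside them (n = 3 per group); axes start at 0. The groups do not overlap for Lrp8, and for Vldlr PEG-glutaminase 2, at 1.57, lies among the vehicle tumours. Both ratios carry the difference of Mylip, which was chosen for its fall.

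The receptors of the pathway themselves came at unequal levels. Nr1h2, which encodes LXR-beta, the form found in most tissues, stood at 2991, 3374 and 2661 normalized counts in vehicle 1, 2 and 3 and at 2666, 2140 and 2927 in PEG-glutaminase 1, 2 and 3. The groups overlapped and PEG-glutaminase 2 was the lowest. Its log2 difference was -0.23 ± 0.13 (SE; limma adjusted p = 0.357; 95% interval -0.52 to 0.06), and -0.10 without PEG-glutaminase 2 and -0.14 without vehicle 2.

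Nr1h3, which encodes LXR-alpha, the form of liver, fat and macrophages and itself an LXR target, stood at 87.9, 59.8 and 97.1 normalized counts in vehicle 1, 2 and 3 and at 90.1, 61.4 and 54.5 in PEG-glutaminase 1, 2 and 3. Neither group was clearly higher. Its log2 difference was -0.25 ± 0.26 (SE; limma adjusted p = 0.618; 95% interval -0.82 to 0.32). Leaving out 1 library gave -0.46 to -0.10. In RefSeq its gene overlaps Acp2, and without a stated strand setting of the counting, reads of the overlap could belong to either gene. Likewise Vldlr, Lrp8 and Lrp1 overlap noncoding genes there. Per kilobase of transcript, Nr1h2 exceeded Nr1h3 by a ratio of 26.8 to 55.1 over the 6 tumours, with a mean of 38.4 ± 14.8 in vehicle and 38.5 ± 12.4 in PEG-glutaminase tumours.

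The cholesterol exporters both had lower means after treatment. Abcg1, which loads cholesterol onto mature high-density lipoprotein, stood at 533, 453 and 527 normalized counts in vehicle 1, 2 and 3 and at 396, 345 and 392 in PEG-glutaminase 1, 2 and 3. As for Mylip, all 3 treated tumours lay below all 3 vehicle tumours. Of the 7 members besides Mylip no other separated in this way, where 12.7% of all tested genes did so in that direction.

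The Abcg1 means were 504 ± 44.4 in vehicle and 378 ± 28.0 in PEG-glutaminase tumours (SD, n = 3 per group). Its log2 difference was -0.42 ± 0.11 (SE; limma adjusted p = 0.134; 95% interval -0.66 to -0.17), and DESeq2 gave an adjusted p of 0.0576. Over the 16 alternative settings the adjusted p ran from 0.0576 to 0.304 and the difference from -0.49 to -0.31. Abcg1 therefore did not pass under any of them.

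Abca1, which loads cholesterol onto lipid-poor apolipoprotein A-I, stood at 2172, 1633 and 1350 normalized counts in vehicle 1, 2 and 3 and at 1367, 1229 and 1464 in PEG-glutaminase 1, 2 and 3. Vehicle 3 lay among the treated tumours, and vehicle 1, the tumour with the high skin markers, was the highest. Its log2 difference was -0.32 ± 0.16 (SE; limma adjusted p = 0.333; 95% interval -0.70 to 0.06). It was -0.14 without vehicle 1 and -0.07 without vehicle 1 and PEG-glutaminase 2 together. The part of skin tissue in the value of vehicle 1 was not tested.

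To compare genes with one another, counts were divided by the length of each gene's longest coding transcript in GENCODE M21. In vehicle tumours the highest level was that of Nr1h2, at 1505 ± 178 normalized counts per kilobase, then Lrp1 at 1209 ± 404 (SD, n = 3), and their ranges overlapped. Vldlr followed at 394 ± 87.1, Mylip at 236 ± 11.4 and Abca1 at 167 ± 40.7 normalized counts per kilobase, each clear of its neighbours. Lrp8 at 90.3 ± 22.4 and Abcg1 at 86.5 ± 7.62 overlapped, and Nr1h3 was the lowest at 41.7 ± 9.93.

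In PEG-glutaminase tumours Mylip, at 144 ± 3.57 normalized counts per kilobase, was no longer clear of Abca1, at 132 ± 11.5, and Abca1 overlapped Lrp8, at 124 ± 16.9. Lrp1, at 1475 ± 91.6, and Nr1h2, at 1289 ± 200, led with overlapping ranges. Abcg1 at 64.8 ± 4.79 and Nr1h3 at 35.1 ± 9.66 were again the lowest. Of the summed per-kilobase level of Lrp1, Vldlr and Lrp8, Lrp8 made up 3.96% to 7.99% over the 6 tumours, and Lrp1 59.6% to 79.0%. Transcript use was not measured, and a shorter transcript would raise a gene's level, Vldlr and Lrp8 among them.

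**Figure D4:**
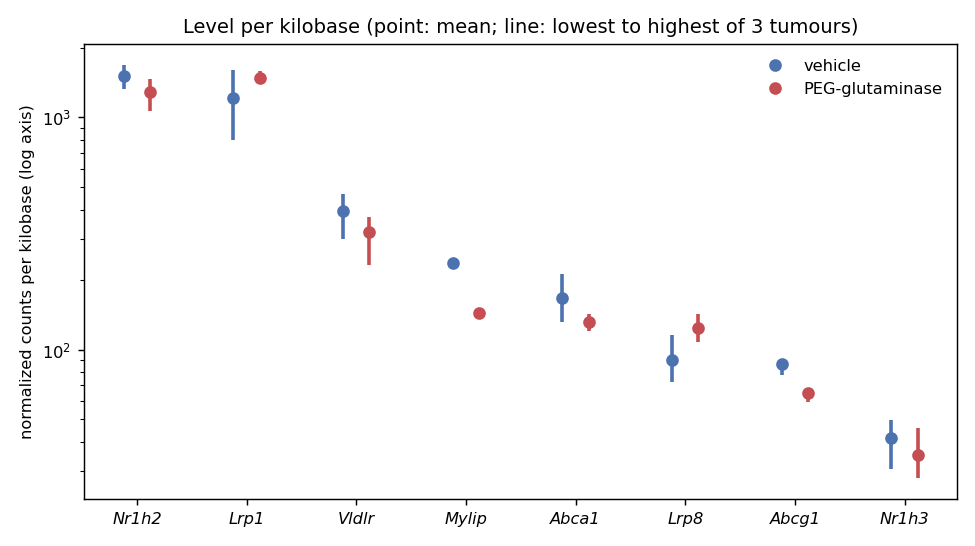
Normalized counts per kilobase of longest coding transcript (log axis) of the 8 members, as mean (points) and lowest to highest of 3 tumours (lines) in vehicle and PEG-glutaminase groups. Nr1h2 and Lrp1 lead in both groups and Nr1h3 is the lowest; Mylip comes down to the range of Abca1 in the treated tumours.

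The wider pathway was read from 6 lists of 92 genes besides Mylip, of which 77 passed the minimum mean of 10 normalized counts. These 77 include the members Vldlr, Lrp8, Lrp1, Nr1h3, Abca1 and Abcg1, so the counts below are not separate from those above. By limma 0 of the 77 were called, and 20 (26.0%) had an unadjusted p under 0.05, against 18.4% of all genes. edgeR called 0 and DESeq2 called 2, Dab2 higher (1.87% of all genes) and Npc2 lower (2.31%). The groups did not overlap in 24 of the 77 (31.2%), 14 lower and 10 higher, against 25.8% of all tested genes, 12.7% lower and 13.1% higher. The median log2 difference of the 77 was 0.02, that of all tested genes being -5e-05.

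Of 25 LXR targets 19 were tested, and besides Mylip 0 of 18 were called. Among those 18, 13 had a negative difference and 5 a positive one, with a median of -0.13, where 50.0% of all tested genes were negative. By limma's unadjusted p under 0.05, 2 were higher and 5 lower, against 8.92% and 9.51% of all tested genes. Acaca, which makes malonyl-CoA, had a mean of 1648 ± 296 normalized counts in vehicle and 2206 ± 178 in PEG-glutaminase tumours, a log2 difference of 0.43 ± 0.13 (SE; limma adjusted p = 0.164). The other gene with a higher value was Fasn, the fatty acid synthase, at 0.52 ± 0.19. The 5 lower were Abcg1, the desaturases Scd1 and Scd2 at -0.30 ± 0.11 and -0.22 ± 0.09, Srebf1, a lipogenic transcription factor, at -0.20 ± 0.07, and the lipoprotein lipase Lpl at -0.53 ± 0.22. All 7 are named because they make up that count, and none passed limma's adjusted threshold. Apoe, the apolipoprotein that Lrp8 and Lrp1 bind, stood at -0.02 ± 0.14, with means of 14284 ± 2510 and 14028 ± 1698 normalized counts.

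Of the LXR partners and coregulators 0 of 14 tested were called, with a median log2 difference of 0.06 and 1, higher, at an unadjusted p under 0.05, against 8.92% of all tested genes. That 1 was Nrip1, a corepressor of nuclear receptors, at 0.33 ± 0.10 (SE; limma adjusted p = 0.162). Gps2, a subunit of the NCoR corepressor complex, stood at -0.20 ± 0.10 and the acetyltransferase Ep300 at 0.22 ± 0.14. Rxra, the common partner of LXRs, had 1575 ± 77.8 and 1629 ± 108 normalized counts (chosen after its values were seen).

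Of 6 tested genes of oxysterol metabolism, which makes and breaks down the LXR ligands, 0 were called and 1, Cyp39a1, was lower at an unadjusted p under 0.05, against 9.51% of all tested genes. Cyp39a1, a hydroxylase of 24-hydroxycholesterol, had a log2 difference of -0.42 ± 0.18 (SE; limma adjusted p = 0.255). Ch25h, which makes 25-hydroxycholesterol, had means of 707 ± 67.8 and 508 ± 191 normalized counts, a difference of -0.55 ± 0.32. Cyp7b1, which breaks such oxysterols down, stood at 0.86 ± 0.56 on means of only 22.2 ± 7.48 and 46.9 ± 27.8.

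Among 12 tested genes of the receptor family and its ligands 0 were called, and 4 higher and 1 lower had an unadjusted p under 0.05, against 8.92% and 9.51% of all tested genes. Ldlrad4, a membrane protein that dampens TGF-beta signalling, was at -0.35 ± 0.11 and Lrp12 at 0.25 ± 0.09 (SE; limma adjusted p = 0.158 and 0.198), neither with overlapping groups. The median of this list was 0.19. Its groups did not overlap in 2 genes lower and 3 higher, against 12.7% and 13.1% of all tested genes. Lrp2, the kidney receptor megalin, and the Lrp8 ligand Reln were under the minimum mean.

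Among 14 tested chaperones, adaptors and trafficking genes limma called 0 (1 higher and 2 lower at an unadjusted p under 0.05, against 8.92% and 9.51% of all tested genes). In this list 3 genes lower and 2 higher had groups that did not overlap, against 12.7% and 13.1% of all tested genes. Dab2, a clathrin adaptor that binds the tails of these receptors, had means of 5274 ± 339 and 6935 ± 702 normalized counts (SD, n = 3 per group). Its groups did not overlap, and its log2 difference was 0.39 ± 0.10 (SE; limma adjusted p = 0.122; DESeq2 adjusted p = 0.0119). Lrpap1, the chaperone that escorts the family through the endoplasmic reticulum, was at -0.24 ± 0.09, and Snx17, which recycles Lrp1 and other members, at -0.20 ± 0.09. The ubiquitin-conjugating enzymes Ube2d1, Ube2d2a and Ube2d3, partners of Mylip, stood at 0.12, -0.01 and -0.13 (chosen after their values were seen).

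Among 13 tested genes of sterol transport limma called 0 (1 higher and 2 lower at an unadjusted p under 0.05, against 8.92% and 9.51% of all tested genes). Npc2, which hands cholesterol on inside lysosomes, had means of 7888 ± 421 and 6200 ± 818 normalized counts and a log2 difference of -0.36 ± 0.11 (SE; limma adjusted p = 0.154; DESeq2 adjusted p = 0.0479). Scarb1, the receptor for high-density lipoprotein, stood at 0.33 ± 0.10 and Lipa, the lysosomal acid lipase, at -0.20 ± 0.09. The groups did not overlap in any of these 3, which were named for their small p. In the whole list 2 genes lower and 2 higher separated in this way, against 12.7% and 13.1% of all tested genes.

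**Figure D5:**
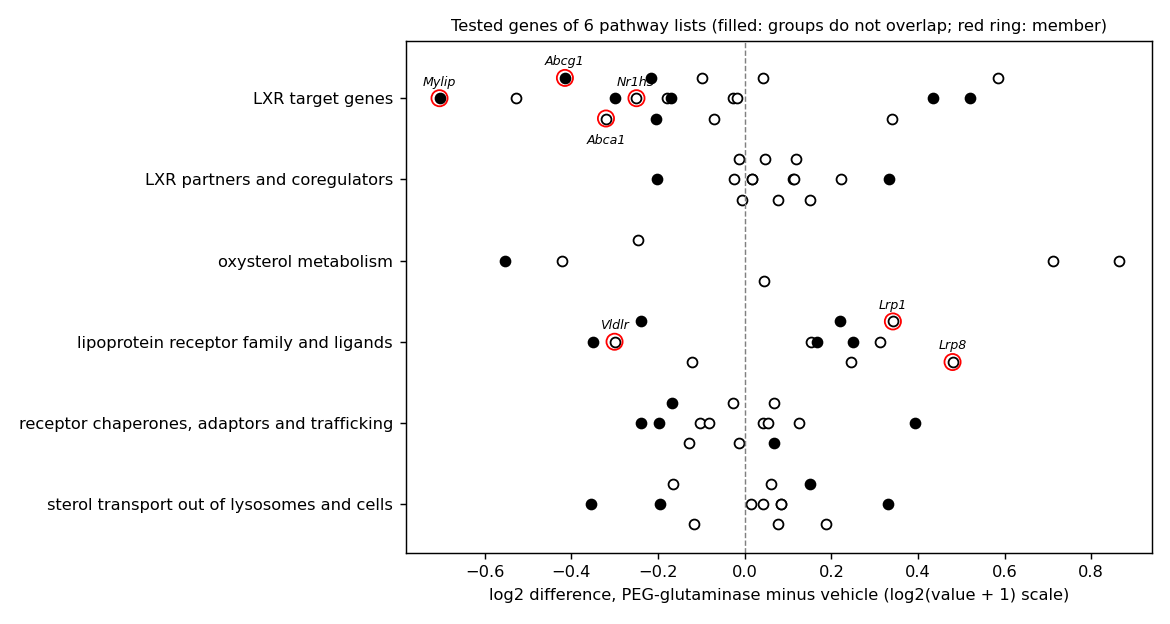
Log2 differences (PEG-glutaminase minus vehicle, log2(value + 1) scale) of the tested genes of 6 pathway lists, 3 tumours per group; each point is a gene, filled where the groups do not overlap, with members ringed and heights shifted only to part the points. Points lie on both sides of 0 in every list, and Mylip, at -0.70, lies at the lower end of the LXR targets.

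The 5 genes whose values over the 6 tumours were most like those of Mylip were Pxmp4, a peroxisomal membrane protein, Fbxw17, an F-box protein, Clec5a, a receptor of myeloid cells, Msra, which repairs oxidised methionine, and the microRNA host transcript Mir22hg. Likeness was Pearson's r on log2(value + 1), ranked over 10725 named genes whose mean reached 50 normalized counts, and given as a description over 6 libraries that share their grouping with Mylip. It was 0.995 for Pxmp4 and 0.990 to 0.991 for the other 4, and 0.41 to 0.87 after group means were subtracted. Pxmp4 stood at 149, 151 and 146 normalized counts in vehicle 1, 2 and 3 and at 106, 104 and 107 in PEG-glutaminase 1, 2 and 3. Mir22hg stood at 237, 232 and 196 and at 118, 133 and 127, in the same order. Among the other members Abcg1 had the highest r with Mylip, 0.86, which was -0.76 after group means were subtracted. Lrp8 had the lowest, -0.78, and -0.71 after subtraction.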

How the data were processed

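The authors deposited, for each gene model, a signal of read counts divided by a size factor of the library. Per the submitters' processing notes the tools were FastQC, STAR, featureCounts, DESeq2 and DESeq; versions, strand setting and genome build were not given in the sources used here, and per the file headers the models are BALB/cJ. The same deposited table holds the authors' log2 fold change, Wald score and p-values. Of 40396 rows 1 was kept for each of 40303 models; models without a symbol held 0.130% to 0.214% of reads and stayed in the fit. Values were whole multiples of 1 read within 0.01 in 100% of cases, so reads were recovered for the count tests. The main test was limma 3.58.1 (R 4.3.3; trend, robust, two-sided) on log2(value + 1) for 13557 genes with a mean of at least 10, called at an adjusted p under 0.05. Alternatives were edgeR 4.0.16, DESeq2 1.42.0, other pseudocounts, filters and scalings, a replicate block and libraries left out. Groups and replicate numbers came from the titles, and the p-values measure the spread between mice. Libraries of a group differed beyond counting noise in every pair (lowest chi-square over its degrees of freedom 8.09). The test was tried on simulated data, and the outcome is not reported here. A gene that was not called is not thereby shown to be unchanged. Members and lists were chosen with earlier results of these data known. Of each list the text names called genes or, failing 3, those of smallest p, besides the 8 members and the 5 genes most like Mylip.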

Additional observations from a re-analysis of the deposited data

How the results depend on the processing

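Mylip, chosen for its fall, stayed between -0.74 and -0.67 under all 16 alternatives. None of the other 7 members was called or changed sign under any. The total of called genes was 5, and it was 136 with no filter on low values, 500 with DESeq2 and 0 to 26 with 1 library left out (0 without vehicle 1, vehicle 2 or PEG-glutaminase 1). Pathway genes called other than Mylip were 0, and 2 by DESeq2; leaving out 1 library gave 0. With the replicate block 1 gene was called. Same-numbered libraries had correlations of -0.13, -0.21 and -0.22 in their deviations from the group means. Such deviations over 3 libraries per group are tied to one another, so they cannot show whether the numbers pair the tumours. Why the counts moved was not tested. Of the members Nr1h3 has the fewest reads, and its standard error of 0.26 was close to the 0.25 of Vldlr.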

Other observations

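The authors' deposited table gives, for some genes, fold changes that differ from those of the 6 libraries beside them. For Mylip it lists a log2 fold change of -0.56 with a standard error of 0.14, where the ratio of group means of the 6 libraries is -0.71 on the log2 scale. For Abcg1 the authors' deposited table lists -0.18 against a ratio of -0.42, and for Nr1h3 it lists 0.15 against -0.25, the opposite sign. For Vldlr and Lrp8 it lists -0.29 and 0.45, against -0.29 and 0.46. The mean level in the authors' deposited table also departs, at 550 for Mylip where the 6 libraries average 582. Of 13557 genes, 65.6% had a mean in the authors' deposited table that differed by over 1% from that of the 6 libraries, and 10.7% had a fold change of the opposite sign. The libraries behind those statistics were not given in the sources used here.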
